A study of Homo sapiens with 9 samples.

Results

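TRAIL, the receptors it binds, the related receptor FAS and the genes that act just below them were followed in SaOS2 cells that carry an inducible antisense RNA to APC. The 10 genes are the ligand TNFSF10 (TRAIL), the death receptors TNFRSF10A, TNFRSF10B and FAS, the decoy receptors TNFRSF10C and TNFRSF10D, and downstream CASP8, CFLAR, BID and PMAIP1. They were taken by gene symbol in the probe annotation, which gave 18 of the 47322 probes on the array. A probe was kept for testing when it was detected (detection p under 0.05) on at least 3 arrays, as 22039 probes were. That left 13 probes of 9 of the genes, and TNFRSF10D had none.

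SaOS2 is an established line from a human bone tumour, an osteosarcoma, and resembles osteoblasts. The cells were grown with G418 and hygromycin and compared in 3 groups of 3 arrays. Control cells received no doxycycline. Doxycycline cells were kept in 1 µg/ml doxycycline, the drug that switches on the antisense RNA, for 3 days. Recovery cells were treated in the same way and then grown for 3 more days without it. No group used here received doxycycline without the antisense construct, and recovery cells were harvested later than doxycycline cells, so drug, antisense RNA and time in culture cannot be told apart. No source used here says whether replicates were separate cultures, so p-values measure array-to-array spread alone, possibly technical.

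TRAIL is a membrane-bound or shed trimer of the tumour necrosis factor family that binds death receptors and gathers an adaptor and caspase 8 at their cytoplasmic death domains. Active caspase 8 cuts effector caspases and also BID, whose fragment moves to mitochondria and opens the route through BCL2 family proteins. Decoy receptors bind the ligand without a working death domain, and CFLAR (c-FLIP), a relative of caspase 8 without its enzymatic activity, blocks its activation. TRAIL is known as an interferon-inducible gene in many cell types.

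TNFSF10 had the largest difference of the 9 measured genes in each comparison, and the base sequence just before its start is shown for that reason. The window is that of RefSeq on GRCh38.p14, chr3:172523431-172523680, minus strand, 250 bases up to the base before the annotated start. It is written 5′ to 3′ along the gene, and the capitals mark a match to the core of the interferon-stimulated response element, which was searched as GAAA, any 2 bases and GAAA, here read on the opposite strand.
TNFSF10: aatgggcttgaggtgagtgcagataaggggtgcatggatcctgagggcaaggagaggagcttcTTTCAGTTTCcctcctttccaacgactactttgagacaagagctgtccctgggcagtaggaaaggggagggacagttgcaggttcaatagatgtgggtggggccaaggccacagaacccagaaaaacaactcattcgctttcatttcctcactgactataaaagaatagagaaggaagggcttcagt

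The search covered both strands of windows from 250 bases before to 50 after each annotated start, for the 6 members with printable windows. Their 17 windows are 1 each for TNFSF10 and PMAIP1, 3 each for FAS and CASP8, 4 for CFLAR and 5 for BID. The response element core occurred in the TNFSF10 window, from 187 to 178 bases before the start, and in 1 of the 3 CASP8 windows, from base 3 before to base 7 after that start. It was in none of the windows of FAS, CFLAR, BID and PMAIP1, and in 3.57% of all 35116 windows. Counted by gene, 4.38% of 27305 genes had a match in any of their windows. A match of letters is a description of the window, and binding was not measured. Both matches to the response element core are set side by side with 10 bases on each side, at chr3:172523598-172523627 (minus strand) and chr2:201233450-201233479 (plus strand).
TNFSF10: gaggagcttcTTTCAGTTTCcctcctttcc
CASP8: gagtttttggTTTCTGTTTCaccttgtgtc

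Between 20141 and 21317 probes were detected per array. On the second principal component doxycycline replicate 2 lay at -66.3, whereas replicates 1 and 3 lay at 7.2 and -15.1, so a count or member difference whose call or sign changed without it, or that moved by over 1.5 times, is given both ways. The doxycycline arrays varied most, with a median standard deviation per probe of 0.229 (log2), against 0.131 in control and 0.133 in recovery. Of 11 osteoblast markers, 10 had a probe and 8 of these were detected on all 9 arrays, among them RUNX2, ALPL and COL1A1, while SPP1 was detected on 0 arrays and BGLAP on 1. Of 5 haematopoietic markers with a probe PTPRC, CD3E and LYZ were detected on 0 arrays, of 4 endothelial markers PECAM1, CDH5 and KDR, and of 4 epithelial markers KRT5, CDH1 and KRT20, whereas CD79A, CD14, VWF and EPCAM were detected on 9. The highest mean level of these 4 was in doxycycline for VWF (7.82, against 7.18 in control) and EPCAM (10.89, against 10.52), in recovery for CD14 (6.28, against 6.03) and in control for CD79A (5.89). Their part in the results was not tested. APC, to which the antisense RNA is directed, had a single probe near background, at 5.14, 5.04 and 5.68 on the control arrays, 5.43, 5.44 and 5.40 on the doxycycline arrays and 5.48, 5.28 and 5.48 on the recovery arrays, and the groups overlapped.

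Levels below are log2 intensities after background correction and quantile normalization. Differences are log2 differences between group means ± standard error, with p adjusted by Benjamini-Hochberg over all 22039 probes and a call at adjusted p under 0.05. Each gene is read from its brightest kept probe. Doxycycline against control addresses the change over 3 days of induction, recovery against control the state 3 days after withdrawal, and recovery against doxycycline the change in between. The first and the last share the doxycycline arrays, the first and the second share the control arrays, and the second and the last share the recovery arrays. The comparisons are therefore not independent of each other.

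Under doxycycline TNFSF10 and PMAIP1 rose, 2 of the 9 measured genes, against 1.41% of all probes called in that comparison (1.02% higher and 0.386% lower). After withdrawal TNFSF10, PMAIP1, FAS, CASP8 and TNFRSF10A were higher than in control, 5 of 9 against 15.1% of probes (7.49% higher and 7.59% lower). TNFSF10, PMAIP1, FAS, CASP8 and BID were higher in recovery than in doxycycline, 5 of 9 against 12.7% of probes (6.34% higher and 6.33% lower). These shares are of probes. Among all 12245 genes, each read from its brightest kept probe like the members, 1.5%, 16.4% and 14.6% were called in the same order. None of the 9 fell in any comparison at its brightest probe. TNFSF10 and CASP8 passed the detection filter through treated arrays alone, so these counts are a description. The median difference of the 9 genes was 0.36, 0.55 and 0.55 in the order given, and that of all probes -0.01, -0.03 and -0.01. Without doxycycline replicate 2 the counts were 2, 6 and 5, against 1.22%, 26% and 15.7% of probes. In bulk RNA a higher level per cell and a larger share of cells with the transcript cannot be told apart.

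**Figure D1:**
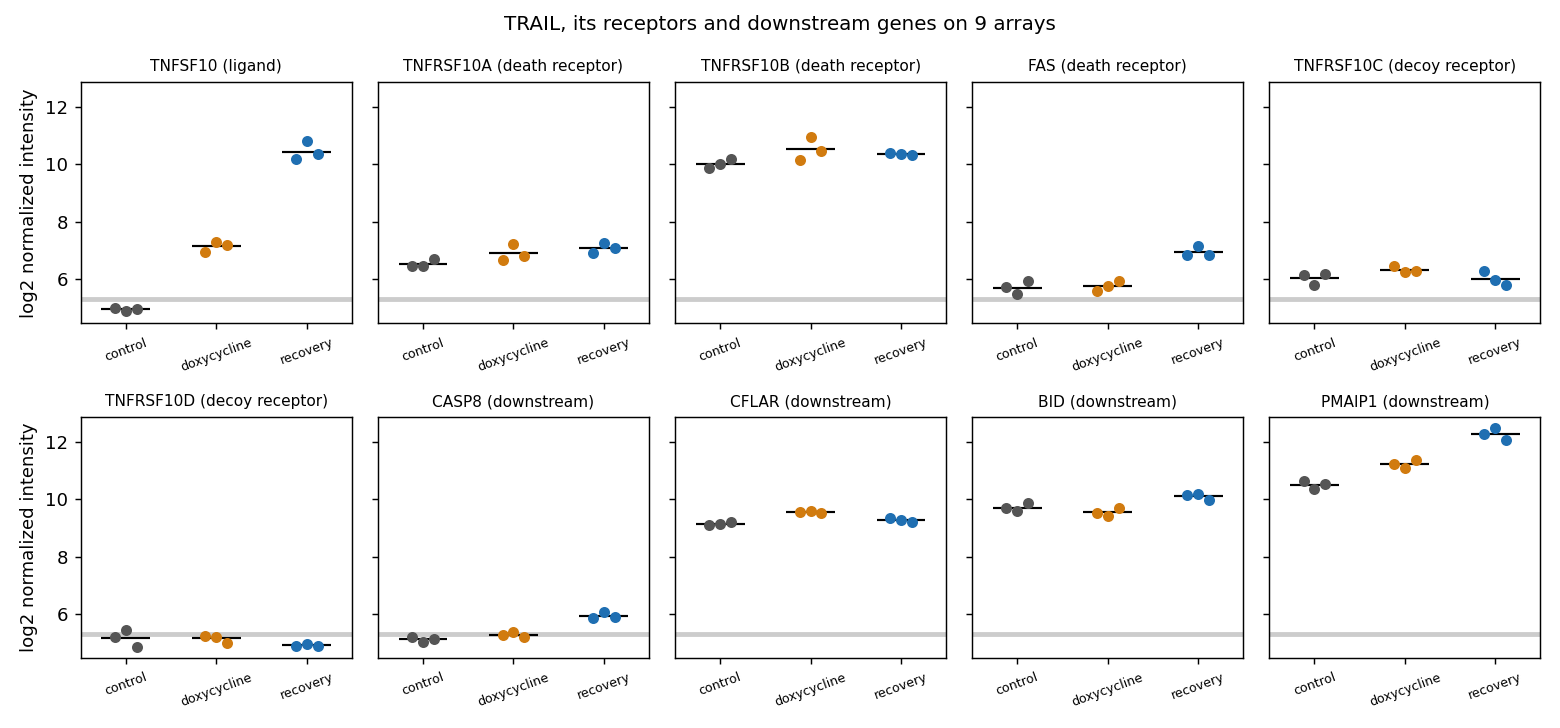
Log2 normalized intensity (vertical axis) of the 10 genes on each of the 9 arrays, 3 per group, read from the brightest probe, with the group mean as a bar. The grey band, from 5.23 to 5.35, spans the lowest detected level of the arrays. TNFSF10 climbs in both steps, FAS and CASP8 lie higher in recovery alone, and TNFRSF10D, whose probe was not kept, stays at the band or below it apart from control replicate 2 at 5.43.

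The ligand went from below detection to a bright signal. TNFSF10 was detected on 0 of 3 control arrays, at 5.01, 4.90 and 4.96, and on all other arrays, at 6.95, 7.28 and 7.19 in doxycycline and 10.18, 10.82 and 10.36 in recovery. The 3 groups did not overlap. On the scale of the deposited signals the control arrays read 7.58 to 19.2, the doxycycline arrays 101 to 156 and the recovery arrays 930 to 1690. Because the control level lies in the background, the change against control is given as a lower bound, taken against the lowest detected level of each control array. TNFSF10 was at least 3.57-fold higher in doxycycline (means 7.14 and 4.95, adjusted p = 4.3e-05) and at least 35.6-fold higher in recovery (mean 10.45, adjusted p = 1.4e-09). Recovery lay 3.32 ± 0.17 above doxycycline, a 9.96-fold difference (adjusted p = 3.8e-07). All 3 calls held in each of 21 alternative analyses, but the size against control depends on the background correction. The fitted log2 difference from control ranged from 1.43 in doxycycline and 4.47 in recovery (both with an offset of 50) to 3.57 and 7.05 (both with the authors' processed values), so the folds given as lower bounds hold at the offset of 16 used here. The difference between recovery and doxycycline ranged from 3.03 to 3.48.

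The genes with the profile nearest to TNFSF10 over the 9 arrays, each centred on its own mean, were sought among 12245 genes by the smallest Euclidean distance. They were MX2, a dynamin-like antiviral GTPase (distance 0.66), BST2, the virion-tethering protein tetherin (0.86), RSAD2, the antiviral enzyme viperin (0.90), the chemokine CXCL10 (0.91) and OAS2, an oligoadenylate synthetase (0.96). Unlike TNFSF10, these 5 were detected on all 3 control arrays. MX2 read 5.35 to 5.70 in control, 8.04 to 8.14 in doxycycline and 11.24 to 11.63 in recovery.

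**Figure D2:**
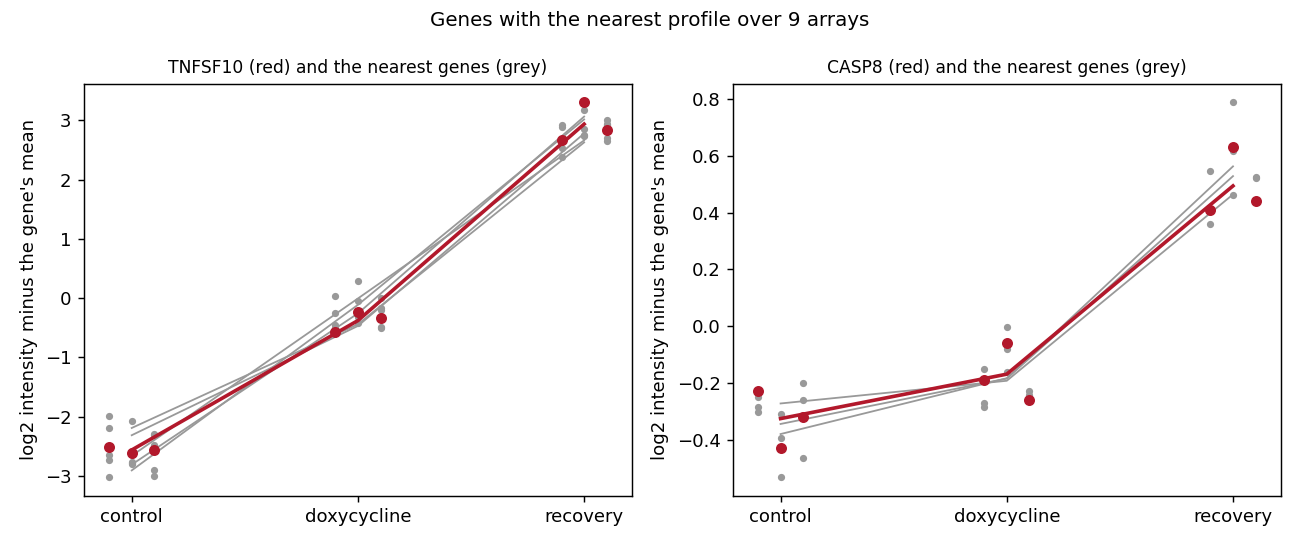
Log2 intensity minus the gene's mean over 9 arrays (vertical axis) for TNFSF10 with its 5 nearest genes and for CASP8 with its 3 nearest genes. Points are arrays, 3 per group, and lines join group means. The TNFSF10 set steps up in both treated groups, while the CASP8 set differs mainly in recovery.

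The TRAIL death receptors moved far less than their ligand. TNFRSF10A (DR4) read 6.45, 6.46 and 6.69 in control, 6.67, 7.22 and 6.80 in doxycycline and 6.92, 7.26 and 7.08 in recovery. Recovery and control did not overlap, while doxycycline overlapped both. TNFRSF10A was 0.55 ± 0.16 higher in recovery than in control (1.46-fold, adjusted p = 0.043). Doxycycline differed from control by 0.36 ± 0.16 (adjusted p = 0.22), and recovery from doxycycline by 0.19 ± 0.16 (95% interval -0.17 to 0.55, adjusted p = 0.50). Without doxycycline replicate 2 these were 0.20 ± 0.14 (adjusted p = 0.52) and 0.35 ± 0.14 (adjusted p = 0.11). The call against control was made in 10 of 21 alternatives. It ended without any 1 of the control arrays, of the recovery arrays or doxycycline replicate 3, with differences of 0.46 to 0.64.

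TNFRSF10B (DR5) was bright throughout, and no comparison passed the threshold. It read 9.89, 10.00 and 10.18 in control, 10.16, 10.94 and 10.48 in doxycycline and 10.40, 10.37 and 10.32 in recovery. Its highest value was that of doxycycline replicate 2. The differences were 0.50 ± 0.18 for doxycycline against control (95% interval 0.11 to 0.90, adjusted p = 0.14), 0.34 ± 0.18 for recovery against control (-0.05 to 0.73, adjusted p = 0.24) and -0.16 ± 0.18 for recovery against doxycycline (-0.56 to 0.23, adjusted p = 0.60). Without doxycycline replicate 1 the first difference was 0.69 ± 0.16 and was called (adjusted p = 0.021), and without doxycycline replicate 2 it was 0.30 ± 0.13 (adjusted p = 0.32). The last was -0.35 without replicate 1 and 0.04 without replicate 2, neither called. A dimmer TNFRSF10B probe was detected on 0 control arrays and on all 6 others, so it passed the detection filter through treated arrays alone. Neither of its differences from control was called (adjusted p = 0.10 in doxycycline and 0.055 in recovery). Set against the lowest detected level of the control arrays, its mean was 1.15-fold higher in doxycycline and 1.13-fold higher in recovery. Another TNFRSF10B probe was detected on 0 arrays.

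FAS, the receptor of the related FAS ligand, differed in recovery and not detectably in doxycycline. It read 5.73, 5.47 and 5.94 in control and 5.58, 5.78 and 5.92 in doxycycline, and these groups overlapped. The recovery arrays read 6.86, 7.14 and 6.85, above all others. FAS was 1.24 ± 0.16 higher in recovery than in control (2.36-fold, adjusted p = 0.00027) and 1.19 ± 0.16 higher than in doxycycline (2.28-fold, adjusted p = 0.00056), and both calls held in 21 of 21 alternatives. Doxycycline differed from control by 0.05 ± 0.16 (95% interval -0.30 to 0.39, adjusted p = 0.88), an interval that allows a rise of up to 0.39.

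The decoy receptors did not pass the threshold in any comparison. TNFRSF10C (DcR1), a receptor anchored in the membrane by a lipid, read 6.13, 5.81 and 6.17 in control, 6.45, 6.25 and 6.27 in doxycycline and 6.28, 5.98 and 5.80 in recovery. Its doxycycline arrays lay above the control arrays, by 0.29 ± 0.16 (95% interval -0.05 to 0.63, adjusted p = 0.29). Recovery differed from control by -0.02 ± 0.16 (-0.36 to 0.32, adjusted p = 0.96) and from doxycycline by -0.30 ± 0.16 (-0.65 to 0.04, adjusted p = 0.23). TNFRSF10D (DcR2), whose cytoplasmic death domain is truncated, was detected on control replicate 2 alone. It read 5.19, 5.43 and 4.84 in control, 5.23, 5.21 and 4.99 in doxycycline and 4.87, 4.97 and 4.89 in recovery, was not kept, and has no test. TNFRSF11B, the soluble decoy osteoprotegerin, which also binds TRAIL, belongs to the pathway lists and had a mean of 12.03 in control (SD 0.08, n = 3), of 12.28 in doxycycline (SD 0.28) and of 12.09 in recovery (SD 0.05), with adjusted p from 0.32 to 0.82. The 4 TNFRSF10 genes are neighbours in the genome and close relatives in sequence, and cross-reading between their probes was not analysed here.

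**Figure D3:**
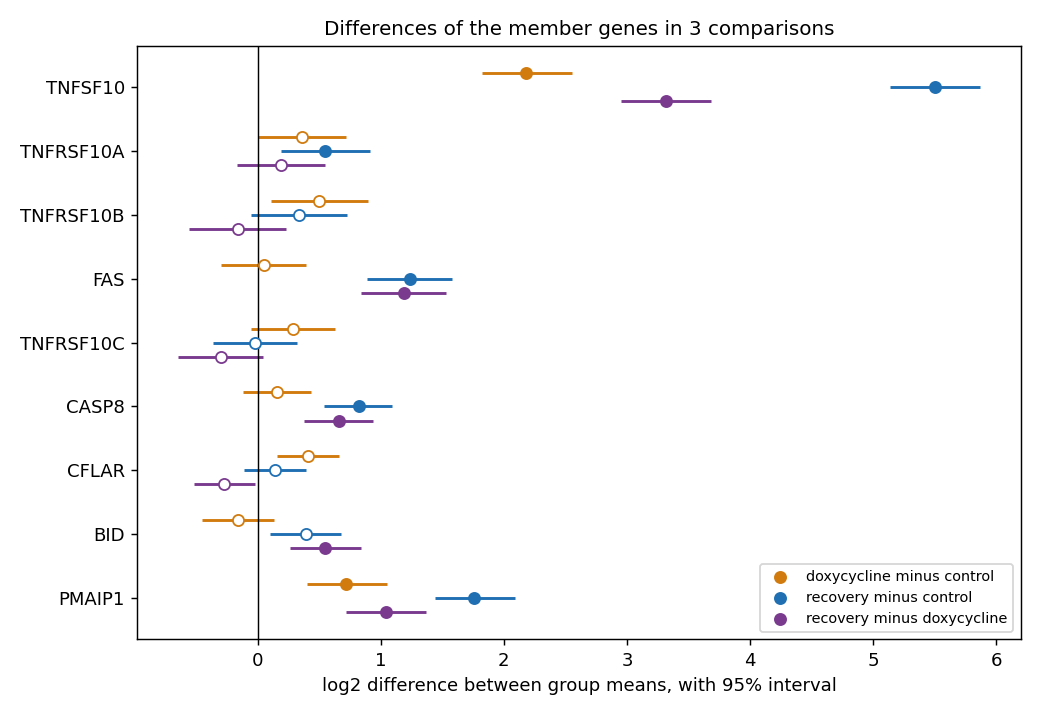
Log2 difference between group means (horizontal axis) with its 95% interval for the 9 genes with a kept probe, in 3 comparisons. Filled points passed adjusted p under 0.05 and open points did not. The fitted values of TNFSF10 and CASP8 against control start from undetected control arrays and are no bounds. TNFSF10 stands far to the right, and the intervals of TNFRSF10B and TNFRSF10C stay under 1.

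CASP8, the initiator caspase of the death receptor complex, was near background and rose after withdrawal. Its brightest probe was detected on 0 control arrays (5.21, 5.01 and 5.12), on 1 doxycycline array (5.25, 5.38 and 5.18) and on 3 recovery arrays (5.85, 6.07 and 5.88). Recovery lay above all other arrays, and doxycycline and control overlapped. CASP8 was at least 1.55-fold higher in recovery than in control (means 5.93 and 5.11, adjusted p = 0.0011) and 0.66 ± 0.13 higher than in doxycycline (adjusted p = 0.0058), where 1 of 3 arrays measured it above background. Both were called in 21 of 21 alternatives, with fitted differences of 0.47 to 1.49 against control and 0.39 to 1.08 against doxycycline, lowest with an offset of 50 and highest without background correction or with the authors' values. The bound of 1.55-fold holds at the offset of 16. Doxycycline differed from control by 0.16 ± 0.13 (95% interval -0.12 to 0.43, adjusted p = 0.48), and by 0.10 without doxycycline replicate 2 (adjusted p = 0.74). Of its other 3 probes 1 was detected on 2 recovery arrays alone, at 5.83 and 5.80, and the other 2 on 0 arrays. The nearest profiles to CASP8 were those of PFKFB4, an enzyme of the control of glycolysis (distance 0.25), SNORD12B, a small nucleolar RNA (0.26), and SWT1 (0.26). CASP8 changed far less than TNFSF10, so these distances cannot be compared with those of the TNFSF10 set. SNORD12B was also near background, detected on 0 control, 1 doxycycline and 3 recovery arrays.

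CFLAR, which lies near CASP8 in the genome with only CASP10 between them among coding genes, had 3 narrow groups that did not overlap in any comparison. It read 9.11, 9.14 and 9.19 in control, 9.57, 9.59 and 9.51 in doxycycline and 9.36, 9.29 and 9.21 in recovery, and so was highest in doxycycline. No difference was called. Doxycycline differed from control by 0.41 ± 0.11 (adjusted p = 0.089), recovery from control by 0.14 ± 0.11 (adjusted p = 0.46), and recovery from doxycycline by -0.27 ± 0.11 (adjusted p = 0.15). Groups without overlap were common, at 25.5%, 43.1% and 31% of all probes in the comparisons of doxycycline with control, recovery with control and recovery with doxycycline. Among the 9 genes 4, 8 and 6 had none. The standard deviation of CFLAR within groups was 0.04 to 0.07. The fit lent it a larger spread from other probes, and with the undetected probes included the first difference was called (0.41 ± 0.06, adjusted p = 0.041), as was the last (-0.27 ± 0.06, adjusted p = 0.040). Without doxycycline replicate 1 the first was called as well (0.40 ± 0.13, adjusted p = 0.049). With an offset of 50 it was called at the edge of the threshold (0.39 ± 0.10, adjusted p = 0.05 after rounding). Array weights, which had not converged, gave a call for the first (0.36 ± 0.06, adjusted p = 0.00089) and the last (-0.21 ± 0.06, adjusted p = 0.015).

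BID, the BH3-only protein cut by caspase 8, gave different answers at different probes. The brightest, ILMN_1763386, read 9.68, 9.59 and 9.86 in control, 9.53, 9.43 and 9.68 in doxycycline and 10.16, 10.18 and 9.97 in recovery, where it was above all other arrays. It was 0.55 ± 0.13 higher in recovery than in doxycycline (adjusted p = 0.018) and 0.39 ± 0.13 higher than in control, which was not called (adjusted p = 0.067). The call against doxycycline was made in 18 of 21 alternatives and ended without recovery replicate 1 (0.53 ± 0.16, adjusted p = 0.071) or recovery replicate 2 (0.51 ± 0.15, adjusted p = 0.086). The difference from control was called in 6 of 21 alternatives, among them the fit without doxycycline replicate 2 (0.39 ± 0.11, adjusted p = 0.028). Probe ILMN_2372413 rose in recovery, by 0.63 ± 0.16 against control (adjusted p = 0.018) and 0.86 ± 0.16 against doxycycline (adjusted p = 0.0041). Probe ILMN_2259495 went the other way, from 6.26, 6.09 and 6.27 in control to 5.73, 5.45 and 5.79 in recovery, a fall of -0.55 ± 0.15 (adjusted p = 0.029). Against doxycycline it differed by -0.48 ± 0.15 (adjusted p = 0.058). Under doxycycline the 3 probes differed from control by -0.16 ± 0.13, -0.23 ± 0.16 and -0.07 ± 0.15, and none was called. The first was -0.10 ± 0.13 without doxycycline replicate 2 (adjusted p = 0.75). Which transcripts each probe reads was not analysed here.

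PMAIP1 (NOXA), a BH3-only protein that binds MCL1, rose in steps like TNFSF10 from a level that was already bright. It read 10.64, 10.35 and 10.52 in control, 11.22, 11.08 and 11.38 in doxycycline and 12.28, 12.48 and 12.05 in recovery, with no overlap between groups. It was 0.72 ± 0.15 higher in doxycycline than in control (1.65-fold, adjusted p = 0.043), 1.76 ± 0.15 higher in recovery than in control (3.40-fold, adjusted p = 1e-05) and 1.04 ± 0.15 higher in recovery than in doxycycline (adjusted p = 0.00097). Both recovery calls held in 21 of 21 alternatives. The doxycycline call held in 8 of 21, and in 2 of 9 fits that left out an array, those without doxycycline replicate 1 and without doxycycline replicate 2. In the other 7 the difference was 0.64 to 0.79, with adjusted p from 0.054 to 0.17. With the replicate number as a block it was 0.72 ± 0.16 (adjusted p = 0.074). The dimmer PMAIP1 probe gave 0.61 ± 0.17 (adjusted p = 0.090), 1.72 ± 0.17 (adjusted p = 3.8e-05) and 1.11 ± 0.17 (adjusted p = 0.0016) in the same order.

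**Figure D4:**
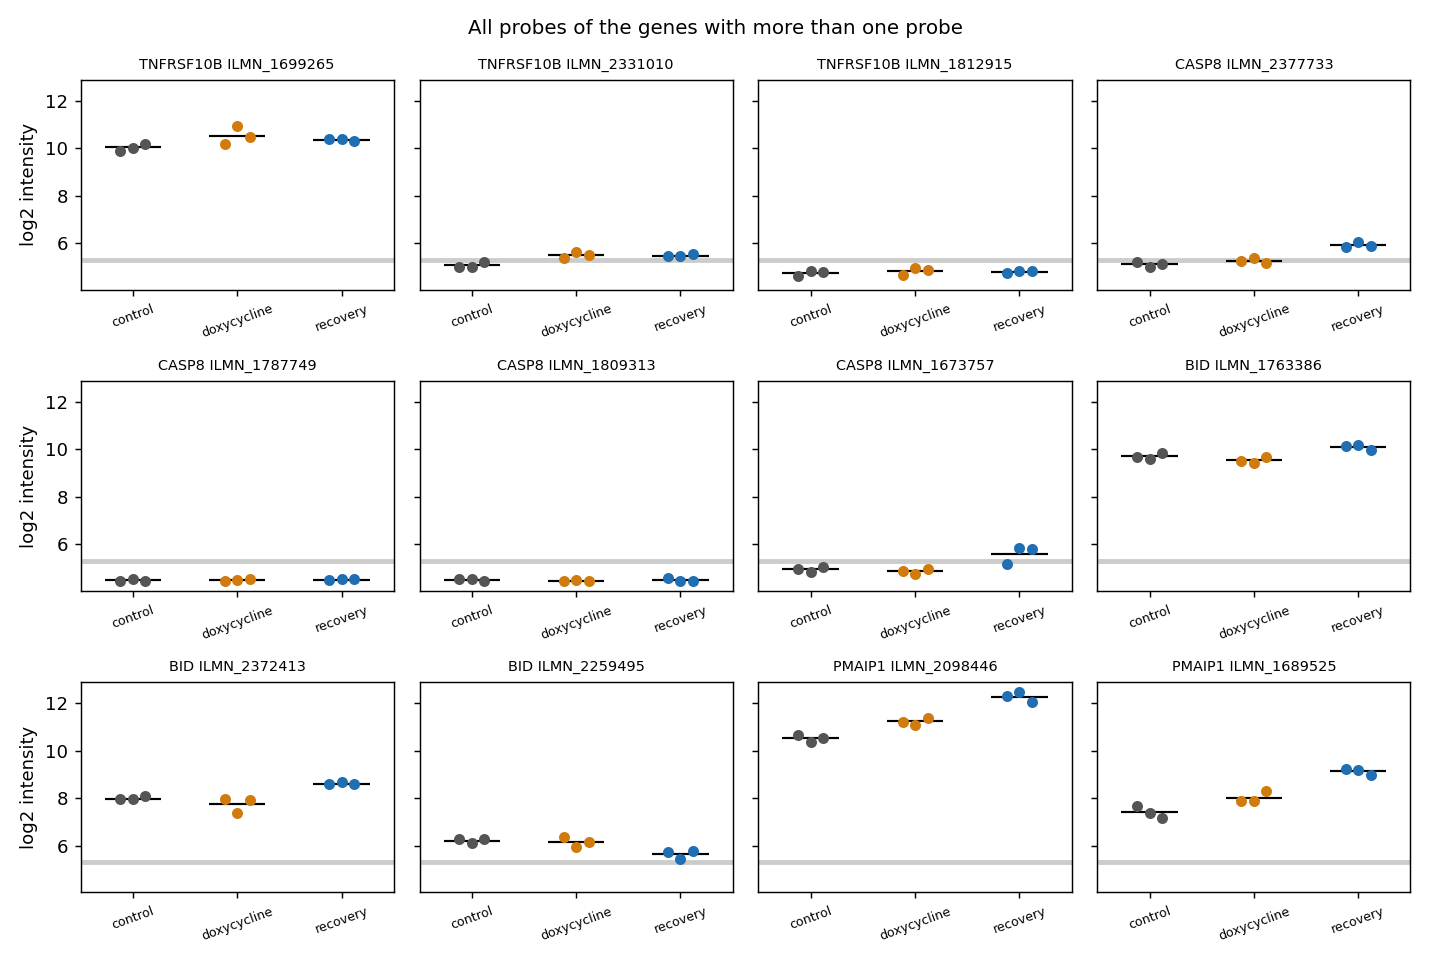
Log2 normalized intensity (vertical axis) on 9 arrays for all 12 probes of TNFRSF10B, CASP8, BID and PMAIP1, with group means as bars. The grey band spans the lowest detected level of the arrays. Both PMAIP1 probes step up together, while BID probe ILMN_2259495 is lowest in recovery, where the other BID probes are highest.

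Other genes of the pathway were taken from lists, with each gene read from its brightest kept probe. Their counts stand against the shares of all probes called, which were 1.41%, 15.1% and 12.7% in doxycycline against control, recovery against control and recovery against doxycycline. These shares were 1.22%, 26% and 15.7% without doxycycline replicate 2. Counted by gene, over 12245 genes read from their brightest kept probes on all 9 arrays, the shares were 1.5%, 16.4% and 14.6%. Among ligands and receptors of the tumour necrosis factor family outside the 10 genes, 1 of 12 measured rose in doxycycline, with none lower. It was TNFRSF14 (HVEM), the receptor of the ligand LIGHT, at 0.84 ± 0.16 (adjusted p = 0.030), and the list's median difference was 0.23. Against control 3 of 12 rose in recovery and none fell, with a median of 0.14, against 15.1% of probes called (7.49% higher). TNFRSF14 rose by 3.01 ± 0.16 (adjusted p = 1.6e-07), from 5.72, 5.91 and 5.86 in control to 8.73, 9.04 and 8.73 in recovery. TNFRSF1B, a receptor of tumour necrosis factor, was at least 1.22-fold higher (adjusted p = 0.0053), and LTBR, the lymphotoxin beta receptor, was 0.60 ± 0.18 higher (adjusted p = 0.047). TNFRSF1B was detected on 0 control, 0 doxycycline and 3 recovery arrays and so passed the detection filter through recovery alone, which makes its place in these counts a description. Without doxycycline replicate 2 the count under doxycycline was 0, and in recovery against control 5 rose and 1 fell, against 26% of probes called. Between doxycycline and recovery 2 rose, TNFRSF14 and TNFRSF1B, with or without that array.

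Of 16 measured adaptors and regulators of death receptor signalling none was called in doxycycline, with a median difference of 0.22. In recovery 6 rose against control and 1 fell, with a median of 0.33, against 15.1% of probes called. There were 8 and 1 without doxycycline replicate 2, against 26%. TNFAIP3 (A20), a ubiquitin-editing brake on the pathway, rose by 1.57 ± 0.15 (adjusted p = 2.8e-05). MLKL, the pore-forming protein of necroptosis, rose by 1.55 ± 0.13 (adjusted p = 8.1e-06), from 9.69, 9.86 and 9.74 to 11.17, 11.50 and 11.25. RBCK1 (HOIL-1), part of the linear ubiquitin ligase, rose by 1.06 ± 0.18 (adjusted p = 0.0021) and the adaptor TRADD by 0.78 ± 0.13 (adjusted p = 0.0018). FADD, the adaptor that joins caspase 8 to the receptors, differed by 0.15 (adjusted p = 0.68). Between doxycycline and recovery 3 rose, TNFAIP3, MLKL and DEDD2, and none fell, whereas 4 rose and 3 fell without doxycycline replicate 2.

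Among caspases and their substrates none of 11 measured was called in doxycycline, with a median of -0.12, and in recovery 3 fell against control and none rose, with a median of -0.01, against 15.1% of probes called (7.59% lower). CYCS, cytochrome c, fell by 1.00 on the log2 scale (SE 0.16, adjusted p = 0.0016), from 6.91, 6.84 and 7.24 to 5.83, 6.12 and 6.04. It stands on this list but is not itself a caspase or a caspase substrate. DFFA, the inhibitor of the apoptotic nuclease, differed by -0.63 ± 0.15 (adjusted p = 0.018) and the effector CASP6 by -0.61 ± 0.17 (adjusted p = 0.034). CYCS was also lower in recovery than in doxycycline (-0.76 ± 0.16, adjusted p = 0.011), the only one of the 11 called there. CASP10, the initiator next to CASP8, was detected on 5 of 9 arrays and differed by 0.01 or less. Without doxycycline replicate 2 the falls were 4 against control and 2 against doxycycline, against 26% and 15.7% of probes called in either direction.

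In the BCL2 family none of 15 measured genes was called in doxycycline, and in recovery 4 rose and 1 fell against control, with a median of -0.04, against 15.1% of probes called. The numbers were the same without doxycycline replicate 2, against 26% of probes. The risen genes were BCL2L13 (0.75 ± 0.13, adjusted p = 0.0027), the BH3-only gene BMF (0.70 ± 0.13, adjusted p = 0.0032), and the survival genes MCL1 (0.68 ± 0.14, adjusted p = 0.0080), whose protein is the partner of NOXA, and BCL2L2 (0.55 ± 0.12, adjusted p = 0.0091). The survival gene BCL2L1 (BCL-XL) was lower, by -0.49 (adjusted p = 0.034). Between doxycycline and recovery BCL2L13 and BMF rose and BCL2L1 fell (-0.47 ± 0.14, adjusted p = 0.044). Without doxycycline replicate 2 there were 3 rises and 1 fall.

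**Figure D5:**
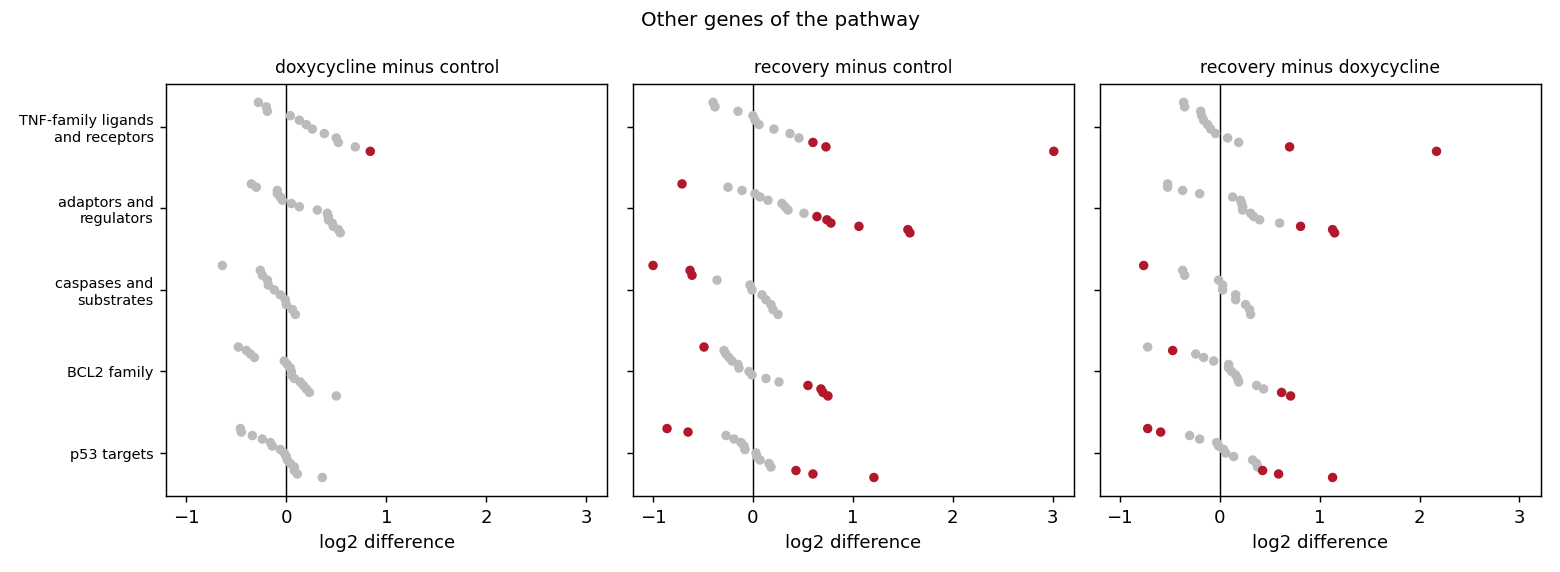
Log2 differences (horizontal axis) of the other genes of the pathway in 5 lists, 1 point per gene, in each of 3 comparisons on the same scale. Red points passed adjusted p under 0.05 and grey points did not. A single red point, TNFRSF14, lies in the panel of doxycycline against control, and it is also the point farthest to the right for recovery.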

How the data were processed

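Per the labels' protocols, total RNA was labelled with a single dye. The signal table deposited by the authors holds an averaged intensity per probe and array, not normalized between arrays and with 29.2% to 32.5% of values below 0. The authors' detection p-value per probe and array was deposited with it, in steps of 1 in 770. A further table deposited by the authors holds quantile-normalized intensity values. No source used here names the software. Coded signal columns were matched to samples because their probe ranks equalled those of a column that carries the sample's name (rank correlation 1.0, at most 0.962 for any other column).

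Signals were corrected with the normexp model of limma 3.58.1 in R 4.3.3, using the detection p-values (offset 16), put on the log2 scale and quantile normalized. Group means were fitted on 9 arrays with lmFit and eBayes over 22039 kept probes, with 6 residual and 5.77 prior degrees of freedom. Gene names came from the platform annotation, with 30112 probes of 1 symbol, 8 of several and 17202 of none. Named genes were the 10 members, APC, up to 4 called genes with the largest difference per pathway list and comparison, and the nearest profiles; FADD, CASP10, TNFRSF11B, and AEN and BCL2L1 against control were named after their values were seen, and so were the cell type markers shown. The members, lists and tests were chosen with earlier results of these data known.

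In 20 simulations of doxycycline against control over 22039 probes with 200 changed, 9.48% of differences of 0.5 were recovered, 68.4% of 1 and 98% of 2, and 4.75% of calls were unchanged probes. Each simulated probe had the same spread in all groups, independent of other probes, whereas the measured doxycycline arrays varied most. These rates therefore need not hold for the measured arrays. The number of arrays limits the precision. Sequences are from RefSeq tables on GRCh38.p14. Same-numbered replicates did not deviate together (correlations from -0.09 to 0.09), so the replicate number was not used to pair arrays. The alternatives were other background correction, normalization, filters, priors and weights, the authors' values and a replicate block. Others were the compared groups alone, 1 probe per gene and leaving out each array. Without background correction means that the deposited signals, which include negative values, received no further correction. There and with the authors' values, intensities under 1 were set to 1. Results of these alternatives were nearly equal, with 157 probes called in each for doxycycline against control. Figures were drawn with matplotlib 3.10.9 in Python 3.11.15.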

Additional observations from a re-analysis of the deposited data

How the results depend on the processing

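Over 21 alternatives, 567 differences of single members were recomputed, of which 515 kept their direction and their side of the threshold, 27 lost a call, 18 gained one and 7 changed sign, none of these 7 called. The sign changes were TNFRSF10C in recovery against control with array weights (0.02) and when an array was left out (0.03 to 0.09 in 3 fits, against -0.02, with a range over all 9 fits of -0.14 to 0.09), FAS in doxycycline against control without control replicate 2 (-0.08) or doxycycline replicate 3 (-0.03; -0.08 to 0.16 over the 9 fits), and TNFRSF10B in recovery against doxycycline without doxycycline replicate 2 (0.04; -0.35 to 0.04 over the 9 fits). The count of 2 members called in doxycycline against control was 1 without background correction, with median scaling and with the authors' processed values. It was also 1 with the replicate block and in the fit of the compared groups alone. The count was 3 with an offset of 50, where CFLAR was added, and 5 with array weights. When an array was left out it was 1 to 4, with 4 without doxycycline replicate 1. The 310 probes called there were 606 with an offset of 50, 157 without background correction, 156 without a filter, 157 with the authors' values, 601 with a trended robust prior, 9457 with array weights, 220 with the replicate block, 100 in the fit of the compared groups alone, and 73 (without control replicate 2) to 3940 (without doxycycline replicate 1) when an array was left out. For recovery against control, 3322 probes became 6984 with array weights, 5775 with the compared groups alone and 1690 to 5628 with an array left out. For recovery against doxycycline, 2791 became 10988, 1684 and 1188 to 4419. The array weights had not converged and gave doxycycline replicate 3 a weight of 79.2 against 0.107 for replicate 2. The causes were not tested. The counts of members called in both recovery comparisons stayed between 4 and 7. The replicate block ended the call of PMAIP1 in doxycycline against control (0.72) and no other call of a member. Levels near 5.3, the lowest detected signal, limit what CASP8, TNFRSF10D and the control level of TNFSF10 can show.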

Other observations

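Other genes known as p53 targets elsewhere were read because FAS, TNFRSF10B and PMAIP1 are known p53 targets too. None of 15 measured was called in doxycycline against control, with a median difference of -0.02. In recovery against control 3 rose and 2 fell, with a median of 0.03, against 15.1% of all probes called. The numbers were the same without doxycycline replicate 2, against 26% of probes. CDKN1A (p21), which halts the cell cycle, rose by 1.21 ± 0.16 (adjusted p = 0.00036), from 10.42, 10.70 and 10.56 in control to 11.65, 11.76 and 11.89. PHLDA3, an inhibitor of AKT, was 0.60 ± 0.18 higher (adjusted p = 0.040) and the nuclease gene AEN 0.43 higher (adjusted p = 0.034). TP53I3, a quinone reductase, was lower by -0.86 ± 0.15 (adjusted p = 0.0025) and TP53INP1, a stress-induced nuclear protein, by -0.65 ± 0.14 (adjusted p = 0.0091). Between doxycycline and recovery 3 rose and 2 fell, or 2 and 2 without doxycycline replicate 2.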
